A study of Mus musculus with 19 samples.

Results

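The IgLON genes *Ntm*, *Opcml*, *Negr1* and *Lsamp* were followed through every extrachromosomal circular DNA (eccDNA) library of a mouse model of amyotrophic lateral sclerosis (ALS). They were taken by name as one gene family, at a time when earlier results of these data were known, and are 4 of the 8336 genes of the table, each of which had an eccDNA in 1 or more of the 19 libraries. EccDNA was purified from cervical spinal cord of 9 male mutants (B6.Cg-Tg(SOD1*G93A)1Gur/J), here called ALS, and of 10 C57BL/6J mice of the same sex and age range, here called control. Each library came from 1 animal. The mutants constitutively overexpress a human mutant *SOD1* transgene (hSOD1G93A) and were taken with mild motor symptoms at 18 to 21 weeks of age. No mice carrying a wild-type human *SOD1* transgene are among the samples, so that the effect of the mutation and of carrying a transgene cannot be told apart.

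IgLON proteins are neuronal cell adhesion molecules of the immunoglobulin superfamily. They are held on the outer cell surface by a glycosylphosphatidylinositol anchor, bind one another as like and unlike pairs across or along membranes, and take part in neurite outgrowth and synapse formation. Neurotrimin is encoded by *Ntm*, the opioid binding protein OBCAM by *Opcml*, neuronal growth regulator 1 (Kilon) by *Negr1* and the limbic system-associated membrane protein by *Lsamp*. The assay reads circles of genomic DNA and says nothing about the expression of these proteins. Circles were recognised by reads that are split across their junction, and the deposited level of a gene is the sum of such reads over all circles that overlap it, scaled by gene length and given as log2(PpGC + 1), where PpGC stands for produced per gene circles.

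All the IgLON genes are long. On mm10, *Ntm* lies on the minus strand of chromosome 9 (chr9:28994750-29963141) and spans 968 kb, and *Opcml* lies on the plus strand of the same chromosome (chr9:27790775-28925410) and spans 1135 kb. Their 3′ ends face each other across 69.3 kb. *Negr1* spans 755 kb on chromosome 3 (chr3:156561794-157316445, plus strand), and *Lsamp* spans 2197 kb on chromosome 16 (chr16:39984361-42181679, plus strand). The median gene of the table is 49.3 kb long. Exons make up 0.834% of *Ntm*, 1.28% of *Opcml*, 1.39% of *Negr1* and 0.783% of *Lsamp*, so that nearly all the DNA a circle could come from is intronic. The table gives each gene 1 value and does not place a circle within it, except where a smaller gene of the table lies inside it. One such gene is a small noncoding RNA gene inside *Lsamp*, Gm27587. In ALS 9 it held 2 split reads, while *Lsamp* held 24, so that at least 1 circle there overlapped an interval of 163 bp that starts 1315 kb downstream of the *Lsamp* start. It is the narrowest place to which a circle within an IgLON gene could be assigned, and its sequence (mm10, chr16:41299734-41299896, minus strand, 42.9% GC) is shown for that reason, with no part in capitals because no part is singled out.
Gm27587: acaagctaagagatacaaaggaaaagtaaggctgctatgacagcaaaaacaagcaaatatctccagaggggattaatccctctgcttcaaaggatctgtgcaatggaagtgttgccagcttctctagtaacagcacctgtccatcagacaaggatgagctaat
The circle may extend beyond either end of these bases.

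Library load has to be known before any gene is read. ALS libraries held an eccDNA in 694 to 2204 genes (median 1114) and control libraries in 57 to 723 (median 157.5). The split reads on genes were 74016 to 391394 (median 176919) in ALS and 3583 to 123387 (median 26549.5) in controls. Sequencing depth per library is not in the table. The values are not scaled between libraries, and 91.1% of them are 0. Across the whole table, 7212 of 8336 genes had a higher mean in ALS and the median difference was 1.19 on the log2 scale. Hence a higher level of an IgLON gene in ALS is read here against this general shift.

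*Ntm* carried an eccDNA in 8 of 9 ALS and in 1 of 10 control libraries. Its log2 PpGC values in ALS 1 to 9 were 3.88, 6.12, 8.31, 0, 6.21, 8.33, 5.05, 3.88 and 5.23. Control 8 stood at 3.34 and the other 9 controls at 0. All 8 positive ALS libraries lay above the highest control, and ALS 4 was the exception. The mean was 5.22 ± 2.55 (SD, n = 9) in ALS and 0.33 ± 1.06 (SD, n = 10) in controls, a difference of 4.89 ± 0.91 (SE). In the exact two-sided permutation test over all 92378 assignments of the libraries to the groups, p was 0.000227, the sixth smallest of the table. After Benjamini-Hochberg adjustment over 8336 genes, this exact p became 0.261. With the methods' t-test the adjusted p was 0.0465 and with limma 0.0411. The single control value rests on 2 split reads, the fewest with which a circle was kept. By presence alone, *Ntm* differed with p = 0.00109 (Fisher's exact test, two-sided, unadjusted).

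Behind the *Ntm* values stood 191 split reads in ALS and 2 in controls. ALS 6 and ALS 3 gave 70 and 69 of them. The remaining positive ALS libraries had 3 to 16. Presence in many libraries therefore went with few reads in most of them.

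*Opcml* was also present in 8 of 9 ALS libraries, but in 3 of 10 controls. In ALS 1 to 9 its log2 PpGC was 6.63, 5.33, 7.50, 3.67, 9.55, 0, 5.01, 4.83 and 9.61. Control 4 had 10.01, control 1 had 4.06, control 10 had 3.14, and the others were at 0. The highest library of all was thus a control, and no ALS library exceeded it. Means were 5.79 ± 3.00 (SD, n = 9) in ALS and 1.72 ± 3.28 (SD, n = 10) in controls, which differed by 4.07 ± 1.44 (SE) with an exact permutation p of 0.0147 (adjusted p = 0.581). Presence of *Opcml* differed with p = 0.0198 (Fisher's exact test, two-sided, unadjusted).

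The control sum of 270 split reads for *Opcml* came almost wholly from the 264 reads of control 4, which made up 0.746% of that library's reads on genes. The antisense gene Gm48091 overlaps *Opcml* over 131 kb at its 3′ end, and control 4 held the same 264 reads there, its only control library. Gm48091 had 14 reads where *Opcml* had 25 (ALS 1), 22 where it had 192 (ALS 5) and 22 where it had 199 (ALS 9). In ALS 7 it had 4 where *Opcml* had 8, and in ALS 8 it had 2 where *Opcml* had 7. A circle that touches both genes is counted in both, and part of Gm48091 lies outside *Opcml*, so that these reads are an upper limit for the overlap. Gm48091 itself was present in 5 ALS libraries and differed by 3.13 (exact permutation p = 0.141). Without control 4, the *Opcml* difference was 4.99 and its exact permutation p was 0.000946.

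*Negr1* was seen less widely, in 6 of 9 ALS libraries and 1 of 10 controls. Its log2 PpGC in ALS 1 to 9 was 0, 4.62, 6.16, 7.88, 0, 0, 6.48, 8.05 and 3.67. Control 8 reached 6.16, on 12 split reads, and the other 9 controls were at 0. ALS 4, 7 and 8 lay above this control, ALS 3 had the same 12 reads, and 5 ALS libraries lay below it. The ALS mean of 4.10 ± 3.37 (SD, n = 9) exceeded the control mean of 0.62 ± 1.95 (SD, n = 10) by 3.48 ± 1.28 (SE), with an exact permutation p of 0.0180 (adjusted p = 0.581). Presence of *Negr1* differed with p = 0.0198 (Fisher's exact test, two-sided, unadjusted). It was the shortest member and had the fewest ALS reads, 118 in all, with 45 in ALS 8 and 40 in ALS 4.

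*Lsamp* showed the widest spread. In ALS 1 to 9 its log2 PpGC was 8.48, 8.52, 6.78, 0, 5.44, 14.00, 0, 0 and 5.63. In *Lsamp*, 3 controls were above 0, with 5.50 in control 10, 2.82 in control 9 and 2.33 in control 2. Of the 6 positive ALS libraries, 5 lay above every control, while ALS 5 lay just under control 10 with 21 against 22 split reads. The means were 5.43 ± 4.78 (SD, n = 9) and 1.07 ± 1.90 (SD, n = 10), a difference of 4.36 ± 1.70 (SE) with an exact permutation p of 0.0122 (adjusted p = 0.581). Presence alone did not pass 0.05 (p = 0.179, Fisher's exact test, two-sided, unadjusted).

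A single library, ALS 6, held 8128 of the 8585 *Lsamp* reads of the ALS group, or 94.7%. These reads were 2.93% of all its reads on genes, and the next library, ALS 2, had 182. On the log2 scale the difference without ALS 6 was 3.29 (exact permutation p = 0.0334). The table does not say from how many circles those reads came. The libraries without *Lsamp* were ALS 4, 7 and 8. Chromosome 16 held 1.81% of the genes with an eccDNA in ALS 7 and 1.39% in ALS 8, but 4.88% in ALS 4, and the ALS libraries ranged from 1.39% to 5.59%. This spread was 7.34 times what counting alone would give in ALS (chi-square over degrees of freedom), against 1.19 in controls, and against 0.390 for chromosome 3 and 1.10 for chromosome 9 in ALS. The part of this in the *Lsamp* values was not tested.

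**Figure D1:**
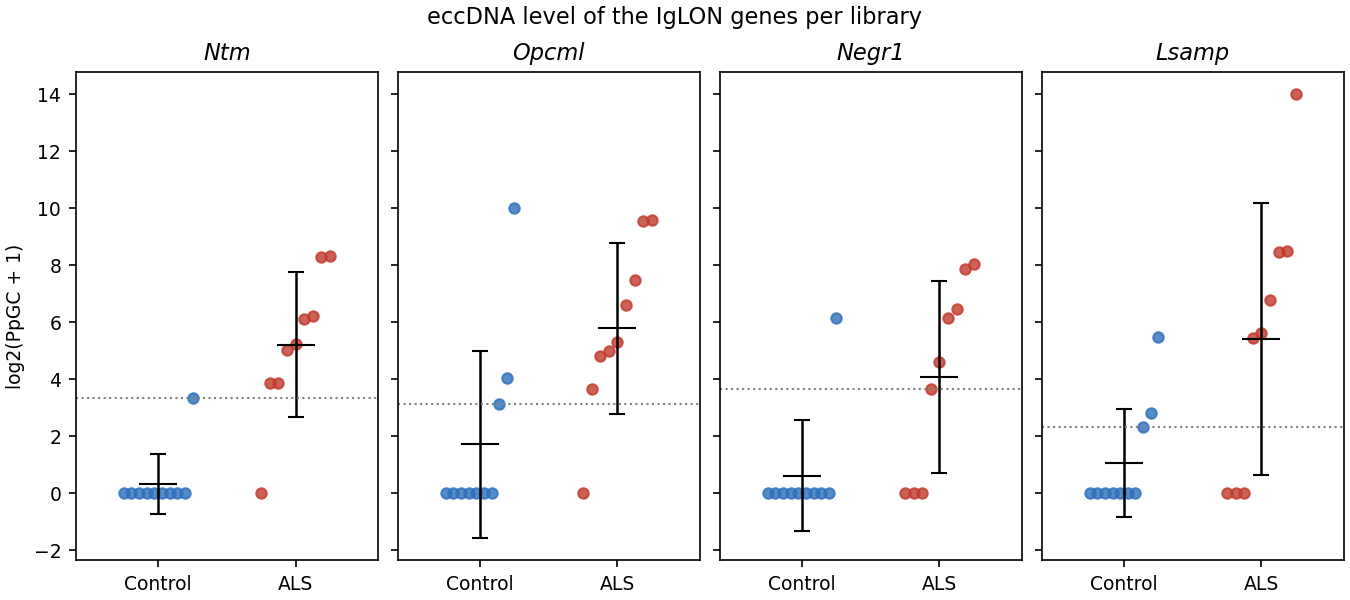
Level of each IgLON gene in log2(PpGC + 1), 1 point per library, for 10 control (blue) and 9 ALS libraries (red), spread sideways in order of value. Black bars give the mean and SD and dotted lines the value of 2 split reads; *Ntm* is the gene whose 8 positive ALS libraries all lie above every control, while *Opcml* is highest in a control at 10.01.

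In order of the ALS mean, which is a level per length, *Opcml* came first with 5.79, followed by *Lsamp* with 5.43, *Ntm* with 5.22 and *Negr1* with 4.10. Each of these neighbours in the order differed by less than the SD of either, and without ALS 6 the mean of *Lsamp* lay below that of *Ntm*. The order of the differences between groups also changed when single libraries were left out.

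Of the IgLON genes, 1 of 4 passed the thresholds of the methods when the exact p is used (a difference above 1 and a p under 0.01), namely *Ntm*. Over all genes, 68 of 8336 passed, or 0.816%, and among the 232 genes longer than 500 kb 47 passed, or 20.3%. With a p under 0.05 all 4 passed, against 3.72% of all genes (310) and 46.6% of the genes over 500 kb (108). With equal totals of reads per library, *Opcml* (exact permutation p = 0.0518) and *Lsamp* (exact permutation p = 0.0912) missed this looser threshold. At a p under 0.01, limma passed all 4, among 166 genes, and the methods' t-test passed all 4 when taken as one-sided, among 189 genes, and *Ntm* when taken as two-sided, among 111. With library load as covariate 0 of the 4 passed, and with a pseudocount of 100 *Ntm* (0.75) missed the required difference of 1 while *Lsamp* (1.48) passed. In the exact test no gene passed in the direction of lower values in ALS, nor did one at a p under 0.05, while 70 genes passed downward with library load as covariate. No gene had an adjusted exact p under 0.05. The smallest adjusted value was 0.199, and a single gene at the smallest possible p would reach only 0.0902. The methods' t-test gave 6 such genes and limma 11.

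The number of libraries can be placed beside other genes in the same way. An eccDNA in 8 or more ALS libraries, as for *Ntm* and *Opcml*, was found in 37 genes, of which 34 were longer than 500 kb. For 6 or more, as for *Negr1* and *Lsamp*, the counts were 130 and 91. Genes over 500 kb were found in a mean of 5.07 ALS and 1.49 control libraries, against 7.0 and 2.0 for the IgLON genes and 1.40 and 0.292 for all genes. The median difference of the IgLON genes was 4.22, that of genes over 500 kb was 3.10 (quartiles 1.93 and 3.93). Of the IgLON genes, 3 lay above the upper quartile of the long genes and *Negr1* below it. With all libraries, *Ntm* ranked 27th among those 232 genes by difference, *Lsamp* 42nd, *Opcml* 53rd and *Negr1* 88th. This order within the family depended on single libraries. Without control 4, *Opcml* (4.99) lay above *Ntm* (4.85). Without ALS 6, *Lsamp* (3.29) lay below *Opcml* (4.79) and *Negr1* (3.99). *Lsamp*, the fifth longest gene of the table with a known length, was seen in fewer ALS libraries than *Ntm*, which is shorter.

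**Figure D2:**
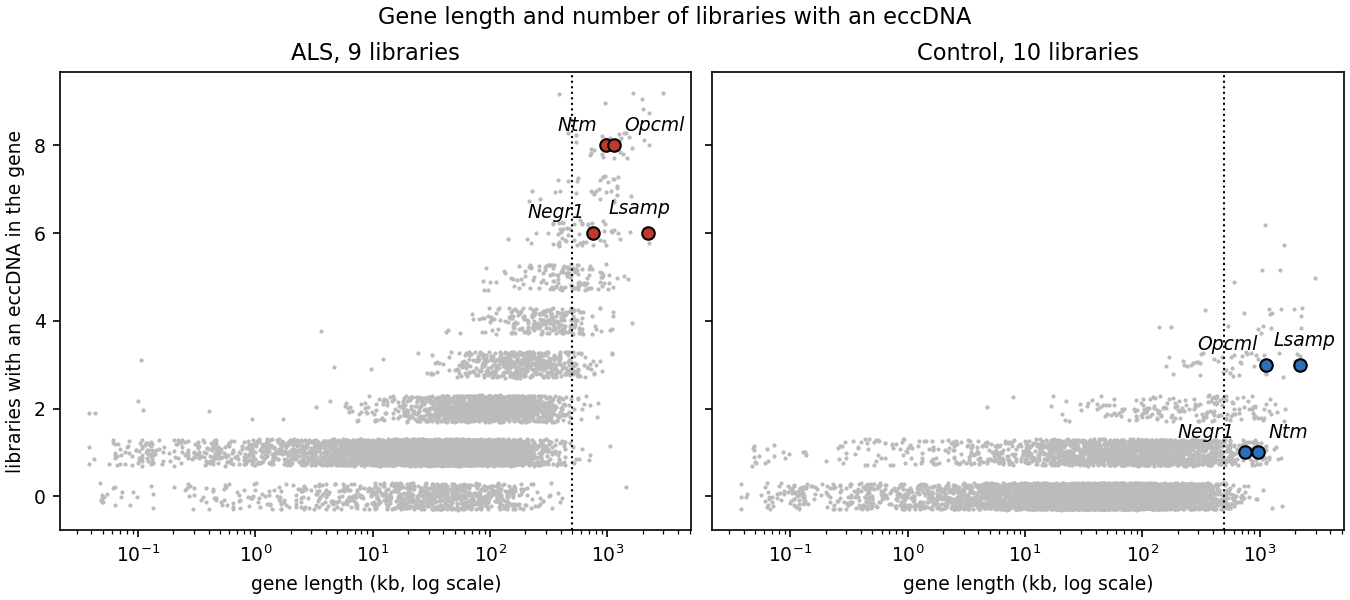
Number of libraries with an eccDNA against gene length in kb (log axis), for 8088 genes of known length (grey, shifted up or down at random within 0.3 for visibility) and the IgLON genes (coloured). Dotted lines mark 500 kb; *Ntm* and *Opcml* are at 8 of 9 ALS libraries and *Negr1* and *Lsamp* at 6, in the range where other long genes also lie.

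Base composition was read over the whole gene, beside that of other long genes. GC content was 42.7% in *Ntm*, 41.0% in *Opcml*, 39.8% in *Negr1* and 37.8% in *Lsamp*. The middle range of the genes over 500 kb was 37.8% to 42.2%, with *Ntm* above it. Bases that the genome masks as repeats made up 16.6% of *Ntm* and 19.8% of *Opcml*, under the lower quartile of 23.4% of the long genes. The values for *Negr1* (25.2%) and *Lsamp* (26.0%) were within the quartiles. These are descriptions of 4 genes, without a test.

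The family was then read library by library. All 9 ALS libraries held an eccDNA in at least 2 of the IgLON genes. All 4 were held by 3 of them, ALS 2, 3 and 9. In ALS 1, 5, 7 and 8 it was 3 of them, and in ALS 4 and 6 it was 2. ALS 6 held *Ntm* and *Lsamp*, and ALS 4 held *Opcml* and *Negr1*. Among controls, 4 libraries held none of the genes, 4 held 1 and 2 held 2. The pairs were *Ntm* with *Negr1* in control 8 and *Opcml* with *Lsamp* in control 10. Per library, 3.11 ± 0.78 (SD, n = 9) IgLON genes were seen in ALS and 0.80 ± 0.79 (SD, n = 10) in controls.

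**Figure D3:**
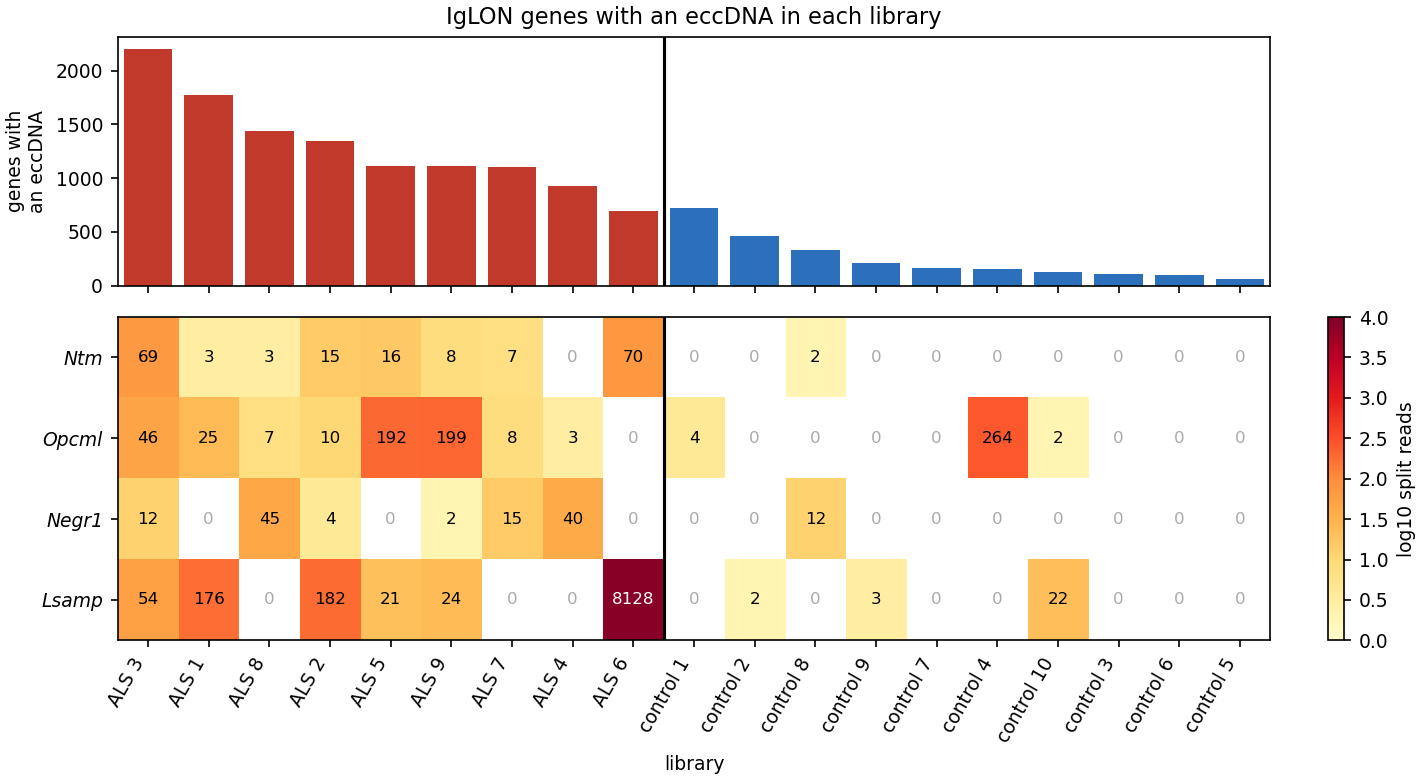
Upper panel, number of genes with an eccDNA in each library (ALS red, control blue), libraries sorted by this number within a group. Lower panel, split reads of each IgLON gene in the same libraries, with colour on a log10 scale and empty cells at 0; filled cells number 28 of 36 in ALS and 8 of 40 in controls.

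Thus 28 of 36 combinations of gene and ALS library were positive (77.8%), against 8 of 40 in controls (20.0%). The same count for genes over 500 kb, which have a shorter median length (723 kb) than the IgLON genes (1052 kb), was a mean of 56.3% in ALS libraries and 14.9% in controls. In single libraries, 34.9% to 78.0% of the long genes were positive in ALS and 3.45% to 42.7% in controls. The share of IgLON genes was above the share of long genes in all 9 ALS libraries and in 4 of 10 controls. Control 1, which had more genes with an eccDNA (723) than ALS 6 (694), held 1 IgLON gene, *Opcml* with 4 reads, and ALS 6 held 2. No other control had more genes than any ALS library, so that group and library load cannot be told apart in the number of IgLON genes. Taken as a share of all genes with an eccDNA, the IgLON genes made up 0.169% to 0.360% (median 0.269%) in ALS and 0% to 1.54% (median 0.177%) in controls, and these ranges overlap.

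**Figure D4:**
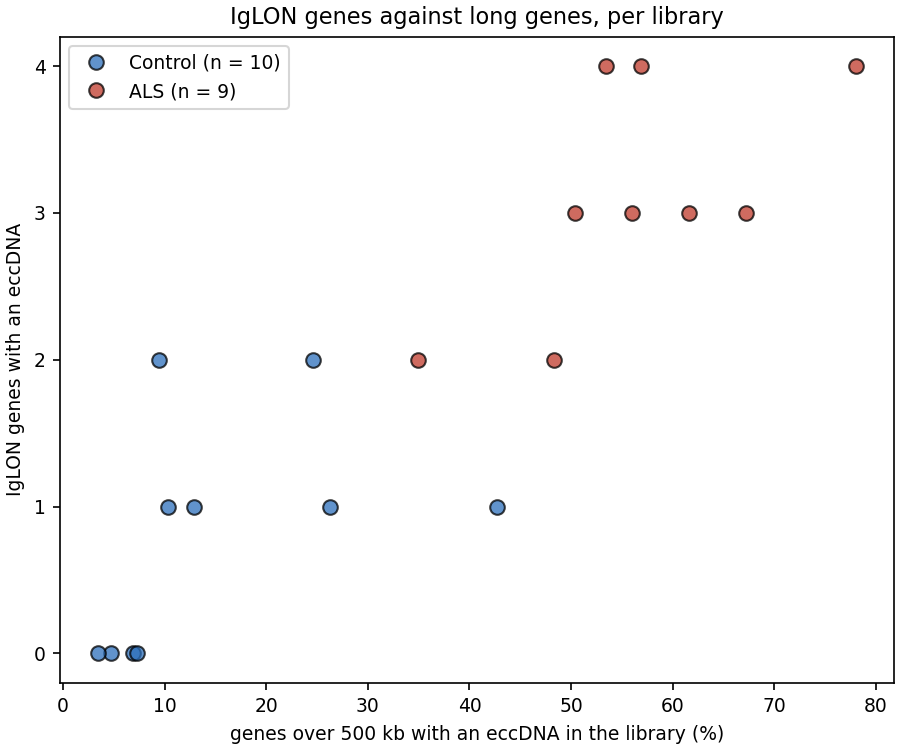
Number of IgLON genes with an eccDNA in a library against the percentage of the 232 genes over 500 kb with an eccDNA in the same library, for 9 ALS (red) and 10 control libraries (blue). Libraries with 3 or 4 IgLON genes are ALS libraries with 50.4% or more of the long genes positive.

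When the number of genes with an eccDNA entered a limma fit as a covariate, the difference of *Ntm* was 3.75 (p = 0.0524) and that of *Lsamp* 4.50 (p = 0.125). *Negr1* stood at 2.22 (p = 0.341) and *Opcml* at 1.25 (p = 0.621). None of the 4 passed the threshold in this fit. With equal totals of reads per library, *Ntm* kept a difference of 3.97 and was still the 1 gene of the family to pass.

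Within the ALS group the genes did not always occur together. *Ntm* and *Opcml*, the neighbours on chromosome 9, were both present in 7 of 9 libraries. Each was missing from a library that had the other, *Ntm* from ALS 4 and *Opcml* from ALS 6. Their highest reads were in different animals, ALS 6 and 3 for *Ntm* and ALS 9 and 5 for *Opcml*. In controls no library held both. *Negr1* and *Lsamp* shared 3 ALS libraries, and each had 3 without the other. The libraries with most *Negr1* reads, ALS 8, 4 and 7, were those without *Lsamp*. *Ntm* was present in all 6 ALS libraries with *Lsamp*, and *Opcml* in all 6 with *Negr1*.

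When at least 10 split reads were required, at least 2 IgLON genes were present in 6 ALS libraries and in 0 controls. *Ntm* then remained in 4 ALS libraries and *Opcml* in 5, while *Negr1* was in 4 and *Lsamp* in all 6 of its own. Among controls, *Opcml*, *Negr1* and *Lsamp* each kept 1 library and *Ntm* kept 0.

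Genes of the table that lie within the IgLON genes or flank them were read next, since circles between genes are not in the table. Gm15520, an antisense gene within *Ntm*, had 17 reads in ALS 3, where *Ntm* had 69. Gm15577, within *Negr1*, had 2 reads in ALS 4, where *Negr1* had 40. The nearest genes of the table outside *Negr1* were Erich3 at 1794 kb and 1810013D15Rik at 609 kb, each in 1 library with 2 reads. *Lsamp* was flanked by Igsf11, an adhesion gene at 957 kb with 16 reads in ALS 1, and by Gap43, which encodes a growth cone protein, at 66.8 kb with 4 reads in ALS 4. Upstream of *Ntm*, Gm31013 at 759 kb was seen in 2 ALS libraries, and upstream of *Opcml*, Igsf9b at 433 kb had 2 reads in ALS 1. Between *Ntm* and *Opcml* the nearest gene to *Ntm* was Gm48091 at 40.4 kb, in 5 ALS libraries and 1 control as described above.

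Other neural adhesion genes of the immunoglobulin superfamily were read beside the IgLON genes. The list has 36 genes, of which 24 are in the table. The fifth IgLON gene, Iglon5, is not among them. Of the 24, 23 had a higher mean in ALS and 1 passed the thresholds, against 0.816% of all genes. It was *Cntn5*, which encodes the contactin NB-2, lies on chromosome 9 and spans 1244 kb. *Cntn5* was present in 8 ALS and 2 control libraries with means of 8.18 ± 4.28 (SD, n = 9) and 1.34 ± 3.31 (SD, n = 10), a difference of 6.84 (exact permutation p = 0.00206). With library load as covariate in limma, *Cntn5* no longer passed, at 2.39 (p = 0.402). At a p under 0.05, 5 of the 24 passed, the others being the nectin-like *Cadm1* and *Cadm2*, the contactin *Cntn3* and *Kirrel3*, against 3.72% of all genes and 46.6% of those over 500 kb. The list holds 7 genes of that length. The exception in direction was the contactin *Cntn6*, with a difference of -1.13 (exact permutation p = 0.598). The list's median difference was 1.69, between the 4.22 of the IgLON genes and the 1.19 of all genes. Its median gene length is 312 kb, against 1052 kb for the IgLON genes.

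**Figure D5:**
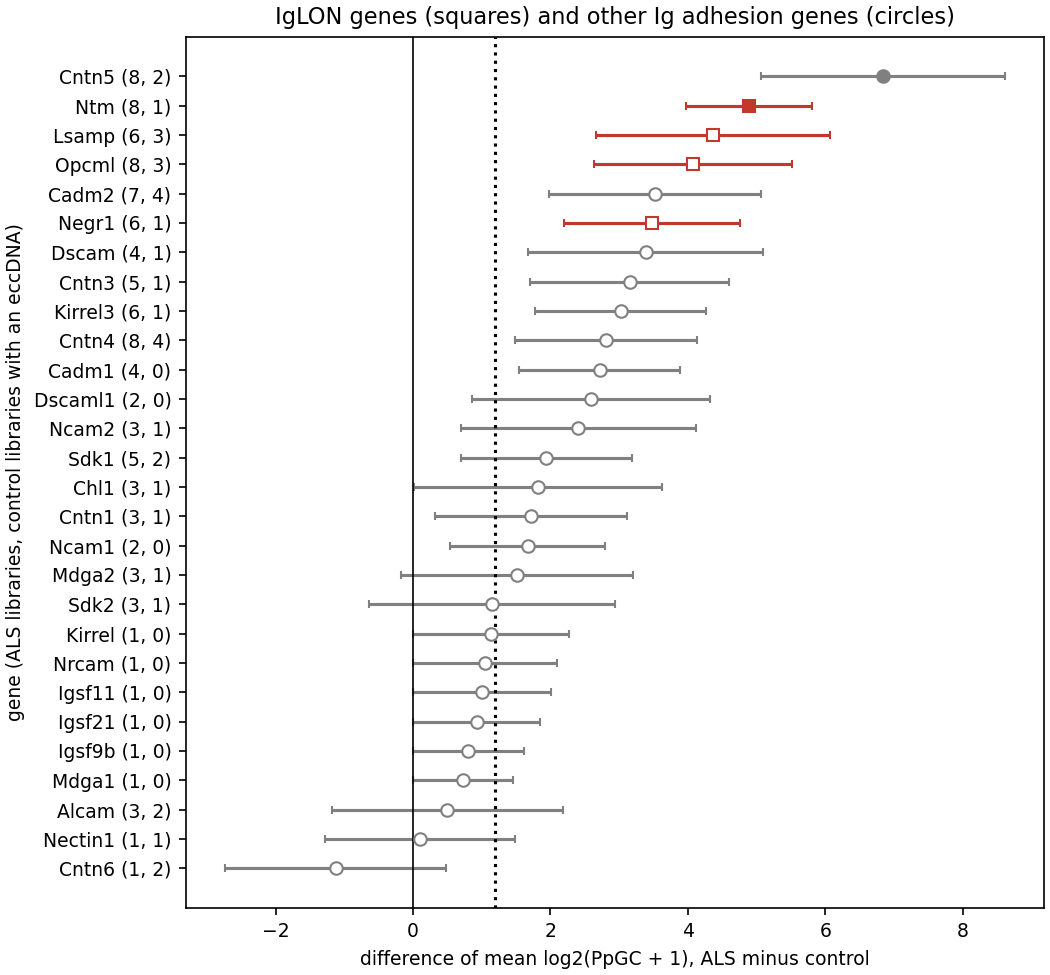
Difference of mean log2(PpGC + 1), ALS minus control, with its SE, for the IgLON genes (red squares) and 24 other immunoglobulin superfamily adhesion genes (grey circles); filled symbols passed the thresholds and numbers in brackets are the ALS and control libraries with an eccDNA. The dotted line is the median of all genes at 1.19; *Cntn5* at 6.84 and *Ntm* at 4.89 are the filled symbols, and both no longer passed with library load as covariate.

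The genes with the most similar profile over the 19 libraries were sought among 399 genes, by Pearson's r of log2 PpGC, as a description that includes the difference in load which all genes share. For *Ntm* they were *Adgrb3* (r = 0.85), which encodes an adhesion G protein-coupled receptor, the kainate receptor gene *Grik2* (r = 0.85) and the adenylate cyclase gene *Adcy2* (r = 0.83). For *Negr1* they were *Kcnip4* (r = 0.86), *Cpa6* (r = 0.82) and *Rp1* (r = 0.78). For *Lsamp* they were *Il1rapl2* (r = 0.79), *Zbtb20* (r = 0.78), also on chromosome 16, and *Grik2* (r = 0.77). For *Opcml* they were the overlapping Gm48091 (r = 0.80), *Galnt2l* (r = 0.76) and *Nkain3* (r = 0.73). The IgLON genes themselves were left out of the 399 genes, so that none could be named for another.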

How the data were processed

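Total DNA of each cervical spinal cord was depleted of linear DNA with exonuclease, amplified by rolling circle amplification and sequenced in paired ends, with 1 library per animal. The authors mapped reads to mm10 with Circle_Finder, joined nearby eccDNAs into one, kept those supported by 2 or more split reads, discarded the mitochondrial genome and assigned the circles to GENCODE genes by overlap (bedtools). The deposited values are log2(PpGC + 1), the summed split reads of a gene times the length of the longest gene over its own length, with no scaling between libraries. The GENCODE release is not given in the sources used here. The table had 0 columns of other samples.

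Values were used as deposited. Genes were placed by name with GENCODE M21 (8088 of 8336). After division by the length factor, 98.9% of values above 0 were whole split reads within a tolerance of 0.02. Libraries shared at most 13.5% (ALS) or 6.15% (control) of their genes in a pair, and all were counted separately. Group means were compared for every gene by an exact two-sided permutation test, adjusted by Benjamini-Hochberg. The methods' t-test, whose sides the methods do not name and which was run two-sided and one-sided, and limma, also with a replicate block or library load as covariate, were alternatives, as were equal totals, no length scaling, a pseudocount of 100 in place of 1, other thresholds and leaving out each library. The tests were checked on simulated data. P-values measure the spread between animals, and no batch is labelled. Split reads after amplification are not independent molecules, and the depth of each single library is not given in the table.

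Named genes were the IgLON genes, genes of the table that overlap or flank them, listed adhesion genes that passed the thresholds, and the 3 genes with the highest correlation to each member among genes with an eccDNA in at least 5 libraries. The other adhesion genes under p = 0.05 and *Cntn6* were named after their values were seen. Members and lists were chosen with earlier results of these data known. The software was limma 3.58.1 under R 4.3.3, and SciPy 1.17.1, NumPy 2.4.6, matplotlib 3.10.9 and pandas 2.3.3 under Python 3.11.15.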

Additional observations from a re-analysis of the deposited data

Results flagged for a closer look

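Single libraries stood apart from their group in each of the IgLON genes, by the gap of the extreme library to its nearest neighbour over the range of the group. Of 16 groups tested (4 genes, 2 groups, log2 values and split reads), 9 met this, and some would by chance. A group in which all other libraries are at 0 meets it with any value. Control 8 was such a library for *Ntm*, at a log2 PpGC of 3.34 from 2 split reads, and for *Negr1*, at 6.16 from 12 split reads, with the other controls at 0. Control 4 had 10.01 for *Opcml* against 4.06 in the next control, or 264 split reads against 4. Control 10 had 5.50 for *Lsamp* against 2.82 in the next control, or 22 split reads against 3. In ALS 6, *Lsamp* had 8128 split reads against 182 in the next ALS library, while its log2 value did not stand apart by this measure.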

How the results depend on the processing

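The direction of the 4 differences was the same under every alternative run. Leaving out each library in turn gave 4.50 to 5.54 for *Ntm*, which passed each time, 3.59 to 4.99 for *Opcml*, 2.99 to 4.10 for *Negr1* and 3.29 to 5.04 for *Lsamp*. *Opcml* fell under p = 0.01 without control 4 or ALS 6, *Negr1* without control 8 or ALS 1, 5 or 6 and *Lsamp* without control 10 or ALS 4, 7 or 8. With library load as covariate *Ntm* no longer passed (3.75), 0 IgLON genes and 34 genes of the table passed upward, and 70 genes were lower by more than 1 at p under 0.01. Limma passed *Opcml* (4.07), *Negr1* (3.48) and *Lsamp* (4.36) as well, so 4 IgLON genes and 166 genes in all. The replicate numbers did not pair the animals (correlations of deviations -0.02 to 0.02 over 9 pairs); with a replicate block, which drops control 10, *Negr1* (3.41) and *Lsamp* (4.86) passed beside *Ntm* (4.85), 3 IgLON genes among 90 genes in all, and *Opcml* had 4.23. With a pseudocount of 100, *Lsamp* (1.48) passed in place of *Ntm*, whose 0.75 is below the required difference of 1, and 39 genes passed in all. Genes of the table passing numbered 45 with equal totals, 111 with the methods' two-sided t-test, 189 with it one-sided (an alternative chosen after seeing the data, which passed 4 IgLON genes, *Opcml* at 4.07, *Negr1* at 3.48 and *Lsamp* at 4.36), 310 at p under 0.05 (4 IgLON genes) and 0 with an adjusted exact p under 0.05 (0 IgLON genes). With at least 10 split reads, 0 controls held 2 or more IgLON genes. The median difference of all genes, 1.19 as deposited, was 1.08 with equal totals, 0.39 with the pseudocount of 100, 0.35 without length scaling and 0.34 with load as covariate. Gene values rest on few reads and are limited by the depth of each library, which is not in the table, amplification and load.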
